A study of Mus musculus with 14 samples.

Results

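The chromatin around 10 regulators of the primitive streak and early mesoderm was followed in mouse cells with wild-type CTCF (WT) and with CTCF in which lysine 20 was replaced by arginine (CTCF-K20R). The genes were T, Eomes, Mixl1, Mesp1, Mesp2, Lhx1, Gsc, Evx1, Msgn1 and Tbx6, chosen by name as known regulators of this stage. They and the other gene lists below were chosen with earlier results of these data known. Every CTCF or H3K27ac peak within 100 kb of one of their start sites (mm10) was taken. This gave 152 of the 86652 CTCF sites in the whole data set, where a site is a stretch of peaks that overlap by at least 1 bp over the 8 CTCF lists, and 70 WT and 54 K20R peaks of H3K27ac. Mesp1 and Mesp2 are neighbours and were treated as 1 locus, which left 9 loci. Within 3 kb of a start a peak was called promoter, and otherwise distal: 6 CTCF sites were promoter and 146 were distal.

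CTCF was mapped by ChIP-seq, the sequencing of DNA bound to an antibody target, in 4 groups of 2 libraries: WT and CTCF-K20R mouse embryonic stem cells (mESCs) at day 0, and embryoid bodies (EBs), aggregates in which these cells differentiate, at day 4. H3K27ac, an acetylated histone residue that marks active promoters and enhancers, was mapped in day 4 EBs with 1 library per genotype. The mutation was introduced into E14Tg2A mESCs with CRISPR/Cas9, and how many clones stand behind the libraries is not stated, so genotype and clone cannot be told apart. mESCs were kept on inactivated mouse embryo fibroblasts with LIF and 2 kinase inhibitors, and EBs were made as hanging drops in serum without LIF. All cells of an EB enter 1 library, so fewer cells of a type and less signal per cell cannot be told apart.

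T, Eomes and Tbx6 are T-box transcription factors, Mixl1, Gsc, Evx1 and Lhx1 are homeodomain factors, and Mesp1, Mesp2 and Msgn1 are basic helix-loop-helix factors. They are switched on as cells of the epiblast pass through the primitive streak, under Nodal, Wnt, Bmp and Fgf signals, and together they set up mesoderm and endoderm. CTCF is a zinc finger protein that binds a long motif, stops cohesin and so bounds the DNA loops within which enhancers meet promoters.

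Several libraries stood apart before any comparison. The first WT list at day 0 held 77657 peaks against 52698 in its replicate, and it alone supplied 27 of the 35 sites near these genes that were called in a single library. At day 4 the K20R lists were shorter (41360 and 47463 peaks) than the WT lists (61088 and 61436). The WT replicates of day 4 differed by less than counting noise: their squared difference in read pileup averaged 0.595 of that noise, and 5.37% of shared sites had the very same summit. The K20R replicates of day 0 gave 0.767 and 3.08%, whereas the 26 other pairs of libraries gave 1.37 to 5.35 and 1.77% to 2.74%. The study describes the replicates as 2 independent experiments per group, and whether these pairs are so was not tested beyond these values. Each of these 2 pairs was counted as 1 sample in n and in SDs. The tests of strength read below count every library. A call in both members of such a pair is not an independent repeat. The numbers of lists and libraries do not allow an exact permutation test to pass 0.05: even 2 against 2 cannot go below 0.333.

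Of the CTCF sites called in both WT libraries at day 4, 19 had no call in either K20R library, and they were all distal. A CTCF motif was found in 9 of the 19. The 8 that lie outside exons are printed here, since the ninth, 6.7 kb downstream of Tbx6 (12.5 bits), lies in an exon, and the other 10 lost sites had no match to show. Each is given with its mm10 position, 5′ to 3′ on the strand named. Capitals mark the best match to a 19-base CTCF matrix learned from the strongest peaks, whose consensus is CGGCCACCAGGGGGCGCTG, and lower case marks 11 flanking bases on each side.
T, 45.2 kb downstream, between genes, chr17:8479598-8479638, minus strand: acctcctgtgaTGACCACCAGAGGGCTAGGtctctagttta
T, 94.4 kb downstream, Pde10a intron, chr17:8528814-8528854, plus strand: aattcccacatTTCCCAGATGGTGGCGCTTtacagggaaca
Tbx6, 6.1 kb upstream, Gdpd3 and Gm9967 introns, chr7:126775367-126775407, minus strand: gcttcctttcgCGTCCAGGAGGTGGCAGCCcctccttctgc
Tbx6, 87.3 kb upstream, Slx1b intron, chr7:126694245-126694285, minus strand: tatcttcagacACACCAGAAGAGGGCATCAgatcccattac
Mixl1, 51.3 kb upstream, Acbd3 and Gm37768 introns, chr1:180748373-180748413, plus strand: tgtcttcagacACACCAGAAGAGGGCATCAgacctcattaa
Lhx1, 60.1 kb upstream, between genes, chr11:84585674-84585714, minus strand: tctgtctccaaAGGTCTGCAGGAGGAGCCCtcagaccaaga
Lhx1, 86.1 kb upstream, between genes, chr11:84611656-84611696, minus strand: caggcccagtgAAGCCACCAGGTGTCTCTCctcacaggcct
Msgn1, 30.8 kb downstream, between genes, chr12:11178174-11178214, minus strand: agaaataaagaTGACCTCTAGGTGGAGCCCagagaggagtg

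For comparison, 5 sites near the 10 genes that all 4 day 4 libraries called are shown in the same way. They do not stand for all kept sites. Their matches scored 18.05 to 24.37 bits, whereas others scored less, such as 10.76 bits 45.8 kb upstream of T and 9.44 bits 64.4 kb downstream of Mesp1.
T, 34.5 kb downstream, between genes, chr17:8468876-8468916, plus strand: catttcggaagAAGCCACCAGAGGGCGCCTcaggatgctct
Eomes, 11.5 kb downstream, between genes, chr9:118489838-118489878, minus strand: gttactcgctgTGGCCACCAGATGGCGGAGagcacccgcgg
Mixl1, 23.5 kb upstream, between genes, chr1:180720512-180720552, plus strand: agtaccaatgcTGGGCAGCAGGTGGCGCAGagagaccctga
Gsc, 25.0 kb downstream, between genes, chr12:104448342-104448382, minus strand: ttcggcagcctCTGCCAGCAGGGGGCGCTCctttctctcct
Mesp1, 5.5 kb upstream, between Mesp1 and Mesp2, chr7:79799236-79799276, plus strand: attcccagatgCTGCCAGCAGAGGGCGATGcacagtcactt

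The match at the Gsc site scored 24.37 bits, the highest among sites kept at day 4 near these genes, and shared 16 of 19 bases with the consensus. The lost T site 45.2 kb downstream shared 13 and the lost Mixl1 site 9. The stretches of the lost Mixl1 and Tbx6 (87.3 kb upstream) sites carry identical motif letters, and all 19 bases of both are masked as repeats in the reference. A match above the threshold of 8.99 bits, which 5% of shifted sequences passed, was present in 9 of 19 lost sites (47.4%) and in 52 of 62 kept sites (83.9%). Over the genome these shares were 73.4% and 91.5%. Of the motifs, 3 of 9 in lost sites and 16 of 52 in kept sites lay in masked repeats.

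**Figure D1:**
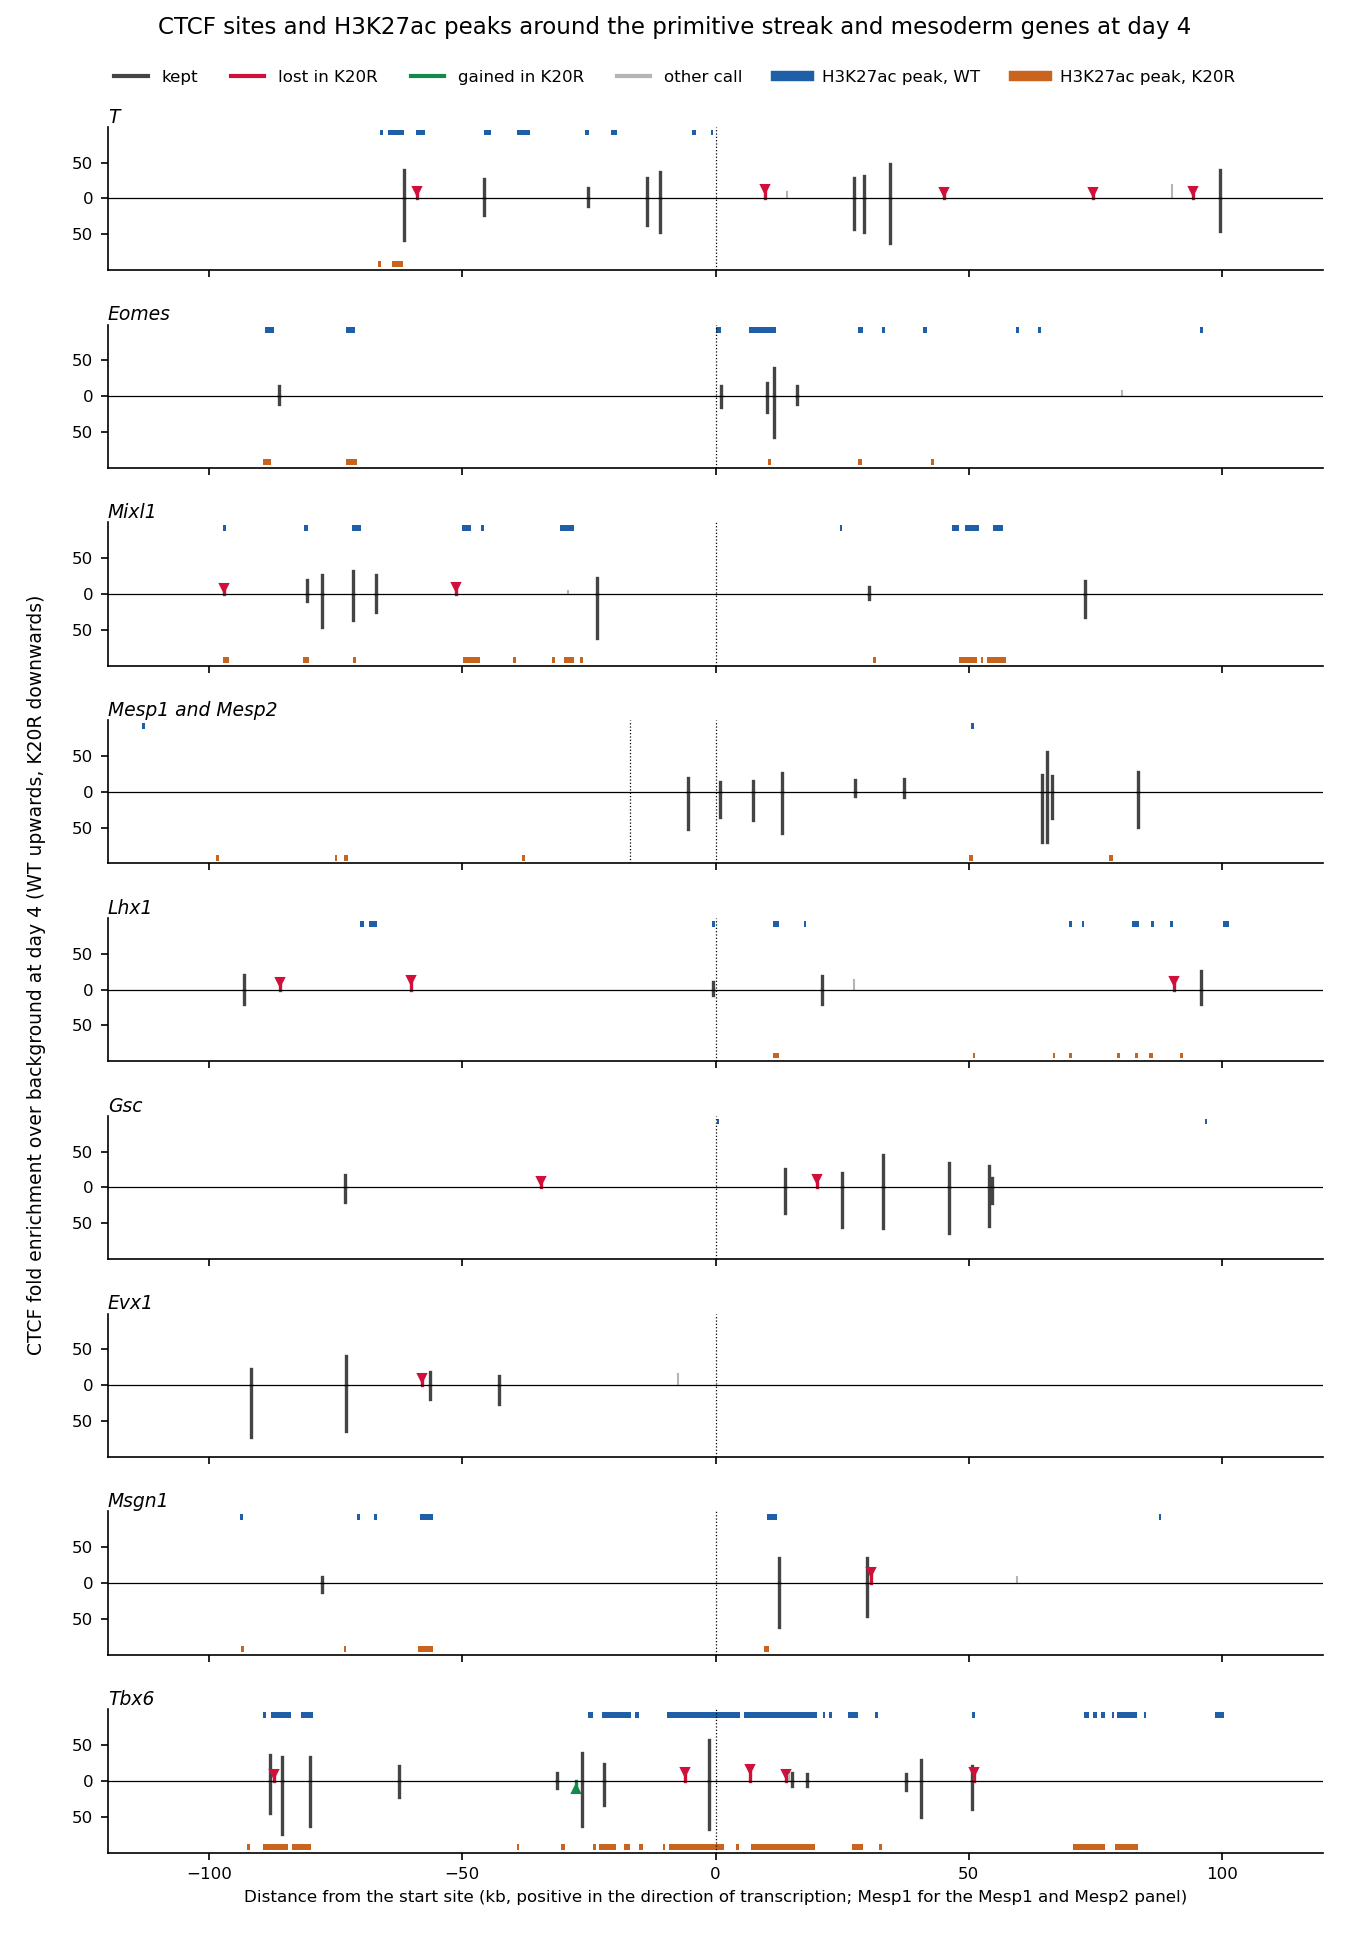
Each panel shows 1 locus at day 4, with distance from the start site in kb on the x axis (for Lhx1, from its upstream start). The y axis gives CTCF fold enrichment, WT upwards and K20R downwards, as the mean of the 2 libraries of a genotype. A site called in only 1 library of a genotype is not drawn for that genotype. Bars at the top and bottom are H3K27ac peaks of WT and K20R: lost CTCF sites (red, 19) are short and distal, and the stretch upstream of T holds WT bars with few K20R bars beneath.

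Around the 10 genes the number of CTCF sites called was lower in K20R on both days, as it was in the whole lists. At day 0 the whole K20R lists held 52076 and 51905 peaks, against 77657 and 52698 in WT. At day 4 the WT libraries, 1 sample here, called 97.5 sites in the mean and 94 in the lower of the pair, and the K20R libraries called 64 and 77. The K20R mean was 70.5 ± 9.19 (SD, n = 2), a difference of -27 sites. At day 0 the WT libraries called 138 and 87 sites and the K20R libraries 77 and 80, with means of 112.5 ± 36.1 (SD, n = 2) and 78.5 (1 sample), a difference of -34 sites. Without the long first WT list the day 0 difference was -8.5 sites, with 1 WT library left and so no WT spread to set it against. Per 1000 peaks of its list, the libraries had 1.65 and 1.53 sites in WT and 1.55 and 1.62 in K20R at day 4, which overlap. At day 0 these were 1.78 and 1.65 in WT and 1.48 and 1.54 in K20R, which do not.

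In K20R at day 4, 19 of 89 sites (21.3%) called in both WT libraries were lost, against 18.8% of all such sites in the genome. 62 sites were kept in both K20R libraries and 8 were called in 1 of them, in 7 cases the second. The losses fell at T (5 of 16), Tbx6 (5 of 19), Lhx1 (3 of 8), Mixl1 (2 of 10), Gsc (2 of 9), Evx1 (1 of 6) and Msgn1 (1 of 5), with 0 of 6 at Eomes and 0 of 10 at Mesp1 and Mesp2. Only 1 of 63 sites called in both K20R libraries was gained, against 0.536% in the genome. The share lost here was close to the genome's. Around 24 other genes of the same programme, among them Nodal, Wnt3, Fgf8 and Bmp4, 34 of 235 sites (14.5%) were lost and 1 was gained. At day 0, 12 of 85 sites (14.1%) were lost near the 10 genes against 7.69% in the genome, 0 were gained against 0.426%, and 67 were kept. Around the 24 other genes 14 of 221 (6.34%) were lost at day 0.

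These counts moved with the length of the lists. With every CTCF list held to its 41360 strongest peaks, 5 of 68 sites (7.35%) were lost near the 10 genes at day 4, against 5.63% in the genome, and 4 of 65 (6.15%) at day 0 against 3.21%. At day 4 those were the sites 6.7 kb downstream of Tbx6, 9.8 kb downstream of T, 30.8 kb downstream of Msgn1, and 60.1 kb upstream and 24.2 kb downstream of Lhx1. The last of them, with fold enrichments of 15.7 and 11.5 in WT and 4.78 in the second K20R library alone, had not counted as lost in the full lists. Leaving out the first K20R library of day 4 gave 20 lost sites and leaving out the second gave 26. Leaving out the second WT library of day 0, and so keeping the long list, raised the day 0 count to 53.

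**Figure D2:**
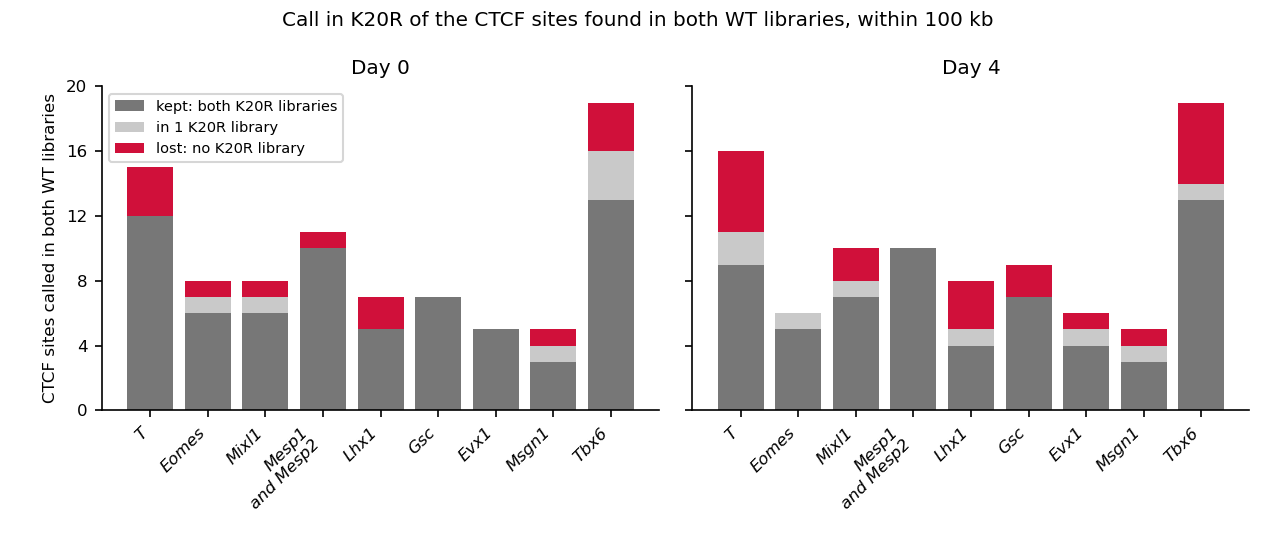
Bars count, for each locus on the x axis, the CTCF sites called in both WT libraries at day 0 (left) and day 4 (right), divided by their call in K20R. At day 4 the red part (lost) is 5 sites at T and at Tbx6 and 0 at Eomes and at Mesp1 and Mesp2.

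The lost sites were weak in WT. Their mean fold enrichment lay at the percentile 19.1 of the WT day 4 lists in the median (range 4.67 to 47.8), against 77.0 for kept sites (30.9 to 99.8); over the genome the medians were 21.5 and 68.3. Recovered pileups, the reads stacked at the summit, ran from 7 to 29 in WT. In 14 of 19 sites both WT pileups exceeded 8, the 5th percentile of K20R calls, and in 3 both were at least double it. For the other sites the absence of a K20R call lies close to what these lists can show.

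T, or Brachyury, drives posterior mesoderm and the notochord. Its nearest lost site lay 9.8 kb downstream of the start and just past the end of the gene (chr17:8443963-8444401), with fold enrichments of 10.6 and 9.02 in WT at day 4. It had been called in all 4 day 0 libraries, at 20.7 and 7.44 in WT and 9.29 and 12.8 in K20R, so it was lost in K20R both against WT and against day 0. The site 59.0 kb upstream, in an intron of T2 and of AC164431.1 (chr17:8375327-8375559), had 4.92 and 4.89 in WT at day 0 and 5.73 and 6.24 at day 4, with no K20R call on either day. The site 74.5 kb downstream behaved likewise (5.75 and 4.01, then 6.18 and 5.05). The sites 45.2 kb (5.28 and 5.11) and 94.4 kb downstream (6.84 and 6.83) completed the 5, and the former had no call in any day 0 library. The strongest distal site of the locus, 34.5 kb downstream, was kept, with 45.6 and 49.5 in WT and 39.9 and 83.9 in K20R. No CTCF site lay within 3 kb of the start of T. At day 0 another site, 71.8 kb downstream (6.17 and 4.02 in WT), was also lost.

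Tbx6, which commits cells to the presomitic mesoderm, lies in a gene-dense stretch with 21 other genes that have a start within 100 kb. Its strongest lost site, in an exon of Ppp4c 6.7 kb downstream (chr7:126787981-126788326), had 14.1 and 9.83 in WT at day 4 and was called at day 0 in all 4 libraries (11.5 and 8.00 in WT, 7.45 and 6.29 in K20R). The sites 6.1 kb upstream (10.7 and 5.54) and 51.1 kb downstream (11.3 and 6.50) were lost on both days, which with the 2 at T made 4 such sites in all. The remaining day 4 losses, 13.8 kb downstream in an exon of Aldoa (5.07 and 5.57) and 87.3 kb upstream (5.13 and 5.12), were weak. The single gained site lay 27.6 kb upstream (chr7:126753685-126754034), at 5.69 and 8.15 in K20R, and both WT libraries had called it at day 0, at 12.2 and 7.14. The Tbx6 promoter site, 1319 bp upstream of the start in an exon of Ypel3, was called everywhere: 45.1 and 33.4 in WT and 63.5 and 66.7 in K20R at day 0, and 57.6 and 55.2 against 44.4 and 89.5 at day 4. A site in an exon of Coro1a 80.2 kb upstream was the strongest distal one over the WT libraries (35.4 and 31.7 in WT, 42.1 and 83.0 in K20R at day 4).

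Eomes, which starts mesoderm migration and endoderm formation, lost no site at day 4. Its promoter site, 891 bp past the start in an exon (chr9:118478139-118479387), started at 22.2 and 20.0 in the WT mESCs and 26.0 and 30.7 in the mutant ones. In EBs the values were 15.4 and 13.8 in WT and 4.38 and 25.5 in K20R, so the 2 K20R libraries enclosed the WT values. The strongest distal site, 11.5 kb downstream, was kept at 36.5 and 41.0 in WT and 43.0 and 69.9 in K20R. At day 0 a site 92.7 kb downstream in a Golga4 intron (13.8 and 6.87 in WT) had no K20R call, and it was absent from every day 4 list. A site 19.8 kb downstream was called in all 4 day 0 libraries (13.4 and 7.32 in WT, 7.17 and 4.40 in K20R) and in none at day 4.

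Among the homeodomain genes, Lhx1, a LIM factor of the anterior streak and node, had the largest share of lost sites. Its promoter site, 498 bp upstream, read 11.4 and 6.30 in WT at day 0 with no K20R call, then 9.12 and 12.2 in WT and 6.83 and 6.99 in K20R at day 4. It was therefore lost at day 0 and kept at day 4. The distal site 60.1 kb upstream had 8.55 and 10.8 in WT at day 4, the one 86.1 kb upstream 5.27 and 7.25, and neither had a K20R call on any day. The site 87.4 kb downstream in an Aatf intron fell out only at day 4: it read 16.1, 14.3, 14.9 and 14.3 at day 0 in WT and K20R and 7.31 and 8.53 in WT at day 4. At day 0 the site 23.6 kb downstream (5.18 and 5.15 in WT) was lost as well, and 92.6 kb downstream lay the strongest distal site. It read 30.2 and 20.6 in WT and 15.99 and 24.95 in K20R at day 4, so the genotypes overlapped.

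Mixl1, a paired-type factor of the streak, lost the sites 51.3 kb upstream (4.47 and 5.81 in WT) and 97.1 kb upstream (4.05 and 5.07). Its only promoter call, 254 bp past the start, came from a single library, the second WT library of day 0, at 3.88. At day 0 a site 93.4 kb downstream (8.06 and 5.15) was lost. Gsc, a repressor of the organizer, lost the sites 20.1 kb downstream (7.60 and 7.60) and 34.5 kb upstream (5.07 and 3.66). Evx1, a factor of the posterior streak beside the HoxA cluster, lost 1 site 58.0 kb upstream (7.41 and 5.12). Neither Gsc nor Evx1 had a promoter site, and neither lost a site at day 0. The distal sites with the highest mean over the 4 WT libraries of both days were all kept at day 4, and their day 4 values follow. They lay 71.6 kb upstream of Mixl1 (33.4 and 29.6 in WT, 22.4 and 50.1 in K20R), 46.2 kb downstream of Gsc (32.4 and 34.5, then 42.7 and 85.04, where the site 33.1 kb downstream was higher in WT at 45.6 and 44.1) and 73.0 kb upstream of Evx1 in an exon of Hoxa10 (38.7 and 42.7, then 39.3 and 89.0).

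The basic helix-loop-helix genes differed from one another. Msgn1, a regulator of presomitic mesoderm, lost the site 30.8 kb downstream (10.0 and 12.1 in WT at day 4), which in K20R had been called in 1 day 0 library at 4.65. The site 59.5 kb downstream was lost at day 0 (7.20 and 5.53 in WT). At Mesp1, an early marker of cardiac mesoderm, and Mesp2, which sets the borders of somites, all 10 sites that both WT libraries called at day 4 were kept. The Mesp1 promoter site, 962 bp past the start in an intron, had 40.1 and 33.2 in WT and 75.5 and 74.8 in K20R at day 0, then 14.6 and 13.9 against 27.2 and 42.9 at day 4. The Mesp2 promoter call, 422 bp past the start, came from the second K20R library of day 4 alone, at 4.66. The one day 0 loss lay 89.8 kb downstream of Mesp1 (4.60 and 6.30 in WT). The strongest distal site at Mesp1 lay 65.4 kb downstream in a Plin1 intron (57.5 and 54.1 in WT, 52.5 and 87.5 in K20R at day 4) and that of Msgn1 12.6 kb downstream (35.5 and 35.5, then 49.0 and 73.4).

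**Figure D3:**
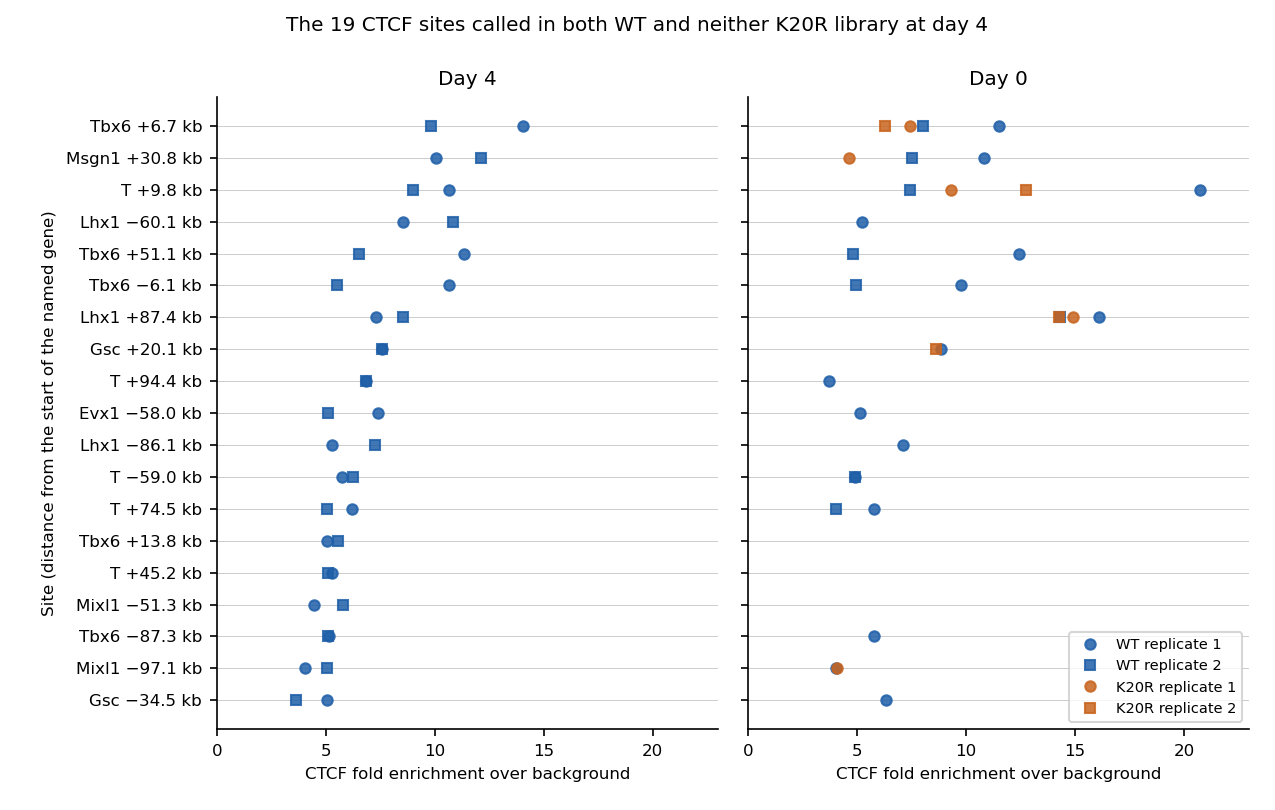
Points give the CTCF fold enrichment (x axis) of the 19 sites lost at day 4 in every library that called them, at day 4 (left) and day 0 (right), with sites on the y axis ordered by their WT mean. No K20R point stands on the left, and on the right 3 sites have points from both K20R libraries.

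These 19 sites had mostly not been firm K20R sites at day 0 either. Both K20R libraries had called 3 of them at day 0 (at T, Tbx6 and Lhx1), 1 library had called 3 and neither had called 13. Both WT libraries had called 8 at day 0, 1 had called 8 and neither had called 3. Each loss at day 4 is read on the same WT libraries as the change in WT over time, so the 2 are not independent.

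From day 0 to day 4, few sites near the 10 genes came or went. In WT 7 of 85 sites (8.24%) were lost against 5.75% in the genome, and 4 of 89 were gained against 3.81%. In K20R 5 of 69 (7.25%) were lost against 9.1%, and 3 of 63 were gained against 1.18%. The WT gains lay 45.2 kb downstream of T, 51.3 kb upstream of Mixl1 and 13.8 and 18.1 kb downstream of Tbx6, and the first 3 of these were the sites that K20R lacked at day 4. The K20R gains included the Lhx1 promoter site and the Tbx6 sites 15.1 and 18.1 kb downstream. The WT losses comprised the 2 Eomes sites above, 2 sites at Mixl1 (46.6 kb upstream and 93.4 kb downstream), the Mesp1 site 89.8 kb downstream and the Tbx6 sites 27.6 and 32.3 kb upstream. The K20R losses were the sites at T, Tbx6 and Lhx1 that all 4 day 0 libraries had called, the Eomes site 19.8 kb downstream and a Gsc site 66.4 kb upstream (6.39 and 6.96 at day 0).

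The strength of kept sites was compared as log2 fold enrichment by limma over all sites called in the 4 libraries of a contrast. Counting the near-identical pairs once, 0 of 62 sites near these genes passed an adjusted p of 0.05 at day 4, and 0 of 67 at day 0, although 8 and 5 had an unadjusted p under 0.05. No site of the genome passed either. Counting every library, 6 were higher and 3 lower in K20R at day 4, against 2.76% and 1.81% of all sites tested, and 5 higher and 0 lower at day 0, against 4.81% and 0.336%. With libraries centred on their medians the day 4 counts were 14 and 4 (12.7% and 13% of all sites) and the day 0 counts 11 and 9 (11.5% and 14%). The median log2 difference near the genes was 0.39 at day 4 and 0.45 at day 0, beside 0.13 and 0.33 over all sites.

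The 9 sites called at day 4 with every library counted are given as values. They include the site between Mesp1 and Mesp2, 5.5 kb upstream of Mesp1 (chr7:79798977-79800214), at 18.9 and 19.2 in WT and 34.3 and 69.8 in K20R (log2 difference 1.36, SE 0.414). The others with higher K20R values lay 7.3 and 64.4 kb downstream of Mesp1, 23.5 kb upstream of Mixl1, 25.0 kb downstream of Gsc and 91.7 kb upstream of Evx1, where an intron of Hoxa7 had 21.5 and 23.8 in WT and 48.1 and 96.7 in K20R (1.59). Lower in K20R were the sites 27.6 kb (16.9 and 15.9 against 5.30 and 7.18) and 37.3 kb (16.8 and 18.9 against 5.44 and 9.23) downstream of Mesp1, both in introns of Wdr93, and 80.7 kb upstream of Mixl1 (21.8 and 18.2 against 4.09 and 15.5).

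The local background that divides the pileup moved with these differences. At Evx1 it was 1.46 and 1.95 reads in WT and 0.766 and 0.728 in K20R, and at the Mesp1 site 27.6 kb downstream 1.13 and 1.14 against 1.45 and 1.93. In all 6 sites with higher K20R values both WT backgrounds exceeded both K20R ones, and in the 3 lower sites the order was reversed. These sites were chosen by fold enrichment, from which the background is recovered, so the choice itself favours such an order. Over all 62 kept sites the median backgrounds were 0.974 and 0.974 in WT and 0.970 and 0.953 in K20R. Backgrounds above 1 read stood at 38.7% and 40.3% of these sites in WT and at 29.0% and 25.8% in K20R. Over all kept sites of the genome the shares were 32.7% and 32.9% in WT and 30.4% and 28.5% in K20R. On the pileups alone, with every library counted, 0 of 62 sites passed in either direction at day 4, against 0.0653% higher and 1.22% lower of all sites, and 8 had an unadjusted p under 0.05.

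**Figure D4:**
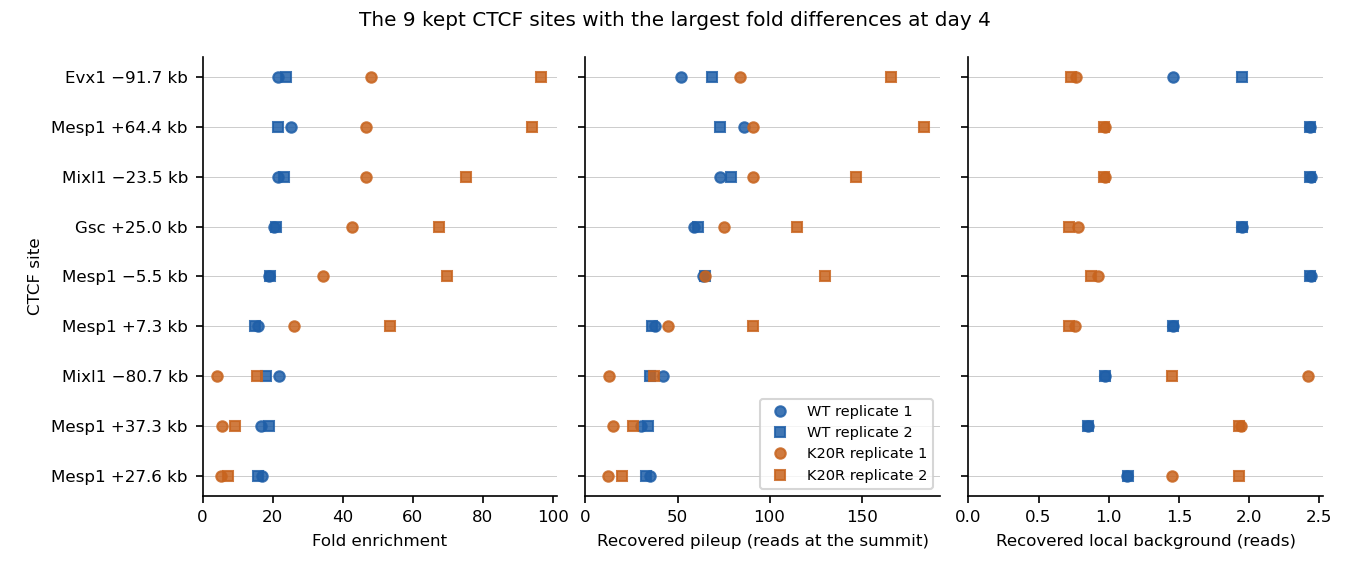
The 9 sites (y axis) are plotted with their fold enrichment, recovered pileup and recovered local background (x axes, left to right) in the 4 day 4 libraries. Background points of WT lie right of K20R for the 6 sites with higher K20R fold enrichment and left of it for the 3 others. The sites were chosen by fold enrichment, from which the background was recovered.

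At day 0 with every library counted, 5 sites were higher in K20R. The Mesp1 site 13.1 kb downstream had 17.4 and 18.4 in WT and 64.1 and 65.4 in K20R. The Gsc site 33.1 kb downstream had 31.3 and 29.4 against 102.8 and 102.7. The Tbx6 site 40.5 kb downstream had 22.2 and 12.3 against 55.9 and 50.7. The others lay 23.5 kb upstream of Mixl1 and 64.4 kb downstream of Mesp1. At these 5 sites too both WT backgrounds exceeded both K20R ones, with 3.31 and 2.97 against 1.15 and 1.16 reads at the first. The choice by fold enrichment favours that order here as well. Over all 67 kept sites the day 0 median backgrounds were 1.18 and 1.12 in WT and 0.963 and 0.962 in K20R. On the pileups 0 of 67 passed in either direction, against 0% and 0.0023% of all sites. Over time in K20R, 0 sites were higher and 3 lower at day 4 than at day 0 (0.101% and 3.91% of all sites): the Eomes promoter site, the Eomes site 15.9 kb downstream (34.3 and 45.8, then 8.59 and 12.7) and the Mesp1 site 27.6 kb downstream (24.4 and 13.9, then 5.30 and 7.18). In WT 0 of 75 passed in either direction against 0.0904% and 0.271% of all sites, with 7 at an unadjusted p under 0.05. The effect of genotype did not pass as different between days at any of 58 sites (0% higher and 0.0192% lower of all sites, 6 at an unadjusted p under 0.05). All of these counts take the near-identical pairs as separate libraries.

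H3K27ac near these genes went the other way from the genome, in 1 library per genotype and so with no replicate check. The genes were chosen with earlier results known, so the contrast is descriptive. WT had 70 peaks within 100 kb and K20R 54, whereas over the genome K20R had more (45318 against 38982). The peaks near the genes covered 113.1 kb in WT and 91.5 kb in K20R, a ratio of 0.809, beside a ratio of 1.19 over the genome. WT had more peaks at 6 loci, K20R at 2 (Mixl1, and Mesp1 with Mesp2), and Evx1 had 0 in both. Of the WT peaks 39 (55.7%) met no K20R peak, against 36.9% in the genome, and of the K20R peaks 24 (44.4%) met no WT peak, against 46.9%. Among peaks of at least 1 kb, 9 of 29 in WT had no partner (13.5% in the genome), and 0 of 21 in K20R (19.6%). Among peaks with a −log10 q of at least 5, WT had 19 and K20R 16. Over the genome the counts at that limit were nearly equal, 10005 and 10014.

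Promoter H3K27ac was found at 5 genes in WT (T, Eomes, Lhx1, Gsc and Tbx6) and at Tbx6 alone in K20R. Thus 4 of 5 genes with a WT promoter peak had none in K20R, beside 5.03% of the 11271 protein-coding genes with a WT peak. The 4 peaks were weak: T had a fold enrichment of 3.55 and a −log10 q of 2.65, Eomes 3.53 and 2.94, Lhx1 3.13 and 1.76, and Gsc 2.83 and 1.18. Among the 1285 protein-coding genes whose best WT promoter peak had a −log10 q under 3, 30.1% had no K20R peak. Of the 24 other genes of the programme 12 had a promoter peak in WT and 6 in K20R, and the 6 without one in K20R were Wnt3, Fgf8, Sp5, Cer1, Pdgfra and Snai1. Their best −log10 q ran from 1.74 at Sp5 to 14.9 at Fgf8. The reverse, a peak in K20R alone, was met at 7.3% of genes with a K20R peak, and at 0 of the 10 and 0 of the 24 genes. Tbx6 kept a broad peak over its start, of 14396 bp in WT (5.11) and 10898 bp in K20R (4.86), and was the one promoter peak that both genotypes had.

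Among marker genes of other cells, promoter H3K27ac was present at 4 of 6 pluripotency genes in WT and 5 of 6 in K20R, at 2 of 5 ectoderm genes, 0 of 5 endoderm genes and 1 of 6 feeder fibroblast genes in each. Sox17 and Foxa2 were among the endoderm genes without a peak, and Col1a1, Col1a2 and Col3a1 among those of fibroblasts. The part of differing cell makeup in the other counts was not tested.

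T had the widest gap. WT had 9 peaks covering 12.6 kb and K20R 2 covering 2.56 kb. All 7 WT peaks within 60 kb upstream lacked a K20R partner. They lay 57.4 kb upstream (1657 bp, fold enrichment 4.94), 44.3 kb (1427 bp, 4.57), 36.5 kb (2630 bp, 3.21), 24.9 kb (917 bp, 4.40), 19.5 kb (1065 bp, 3.04), 3.9 kb (762 bp, 4.34) and 463 bp (471 bp, 3.55) from the start. The first of these (chr17:8375342-8376998) overlaps the CTCF site 59.0 kb upstream that K20R lacked on both days, whereas those 44.3 and 24.9 kb upstream overlap CTCF sites kept in K20R (13.4 and 31.9, and 7.40 and 13.4). The strongest peak of the locus, at T2 61.6 kb upstream, was present in both, at 6.95 over 3127 bp in WT and 4.93 over 2176 bp in K20R.

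Eomes had 10 WT and 5 K20R peaks. A WT peak of 5450 bp between 6.5 and about 12 kb downstream (5.18) was met in K20R by 583 bp (2.66), and that stretch holds the kept CTCF sites 10 to 12 kb downstream of the start. The strongest distal peaks, 87.2 kb upstream in WT (6.26) and 70.7 kb upstream in K20R (4.99), each had a partner. At Lhx1 WT had 11 peaks and K20R 8. Its promoter peak, in WT alone, holds the Lhx1 promoter CTCF site that all 4 day 4 libraries called, and the Eomes promoter peak overlaps the kept Eomes promoter site. WT-only peaks of at least 1 kb also lay 66.9 kb upstream (1645 bp, 3.33) and 97.1 kb downstream of Lhx1 (1140 bp, 2.90), while the strongest one, at the Aatf start 8.2 kb downstream, was found in both (5.86 in WT and 6.33 in K20R). Gsc had 2 WT peaks, the promoter one and one 96.7 kb downstream (3.08), and 0 in K20R.

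At Mixl1, Msgn1 and Tbx6 the strongest peaks lay at neighbouring genes and were shared. For Mixl1 they stood at Lin9, 54.8 kb downstream in WT (11.4) and 53.6 kb in K20R (9.09), with 10 peaks in WT and 12 in K20R and a WT-only peak of 1428 bp 46.6 kb downstream (3.29). For Msgn1 they stood at Gen1, 55.8 kb upstream (8.14 and 6.87), with 6 and 4 peaks. Tbx6 had 20 and 17 peaks, led by one at Hirip3 79.3 kb downstream in WT (8.68) and one at Bola2 84.5 kb upstream in K20R (9.53), and a WT-only peak of 1751 bp 98.7 kb downstream (2.93). Mesp1 and Mesp2 had 2 and 6 peaks. The strongest lay at Pex11a 50.5 kb downstream of Mesp1 in WT (3.06), with a K20R partner, and at Kif7 77.7 kb downstream in K20R (4.28), with no WT partner.

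**Figure D5:**
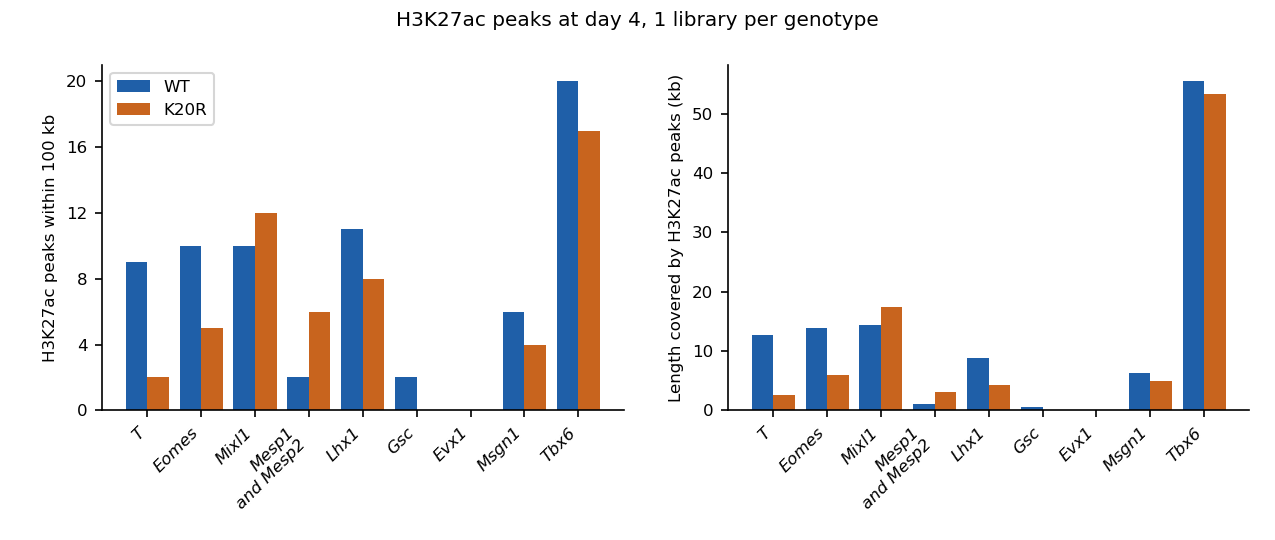
Bars give, for each locus on the x axis, the number of H3K27ac peaks (left) and the length they cover in kb (right) at day 4, 1 library per genotype. The T bars fall from 9 to 2 peaks and from 12.6 to 2.56 kb, whereas those of Mixl1 and of Mesp1 and Mesp2 are higher in K20R.

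Loss of a CTCF call and loss of an H3K27ac peak met at few places. Of the 19 lost CTCF sites 7 (36.8%) overlapped a WT H3K27ac peak, as did 17 of 62 kept sites (27.4%). Over the genome these shares were 9.02% and 11.7%. The gene-dense Tbx6 locus alone held 4 of the 7 lost and 7 of the 17 kept sites. K20R H3K27ac peaks overlapped 4 of the 19 lost and 11 of the 62 kept sites, so both overlaps were fewer than with WT peaks. Over the genome K20R peaks overlapped 1050 of 10345 lost and 5830 of 38295 kept sites, and WT peaks 933 and 4496. At 3 of the 7 sites, at T (59.0 kb upstream), Tbx6 (6.7 kb downstream) and Lhx1 (87.4 kb downstream), no K20R H3K27ac peak overlapped the site. At T and Lhx1 the WT peak itself had no partner, whereas at Tbx6 it was shared and the K20R peak began past the CTCF site. Mesp1 and Mesp2, with no lost CTCF site, had more H3K27ac peaks in K20R, and Eomes, with none lost either, had fewer.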

How the data were processed

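CTCF (8 libraries) and H3K27ac (2 libraries) were profiled by ChIP-seq; 4 input libraries were not analysed here. Per the labels and the study's methods, the authors trimmed reads with Trim Galore, aligned them to mm10 with Bowtie2, removed low-quality, duplicate and blacklisted reads, subsampled the CTCF libraries to equal read numbers and ran MACS2 on each library, with narrow peaks for CTCF and broad ones for H3K27ac. Which input served which call, and whether H3K27ac was subsampled, is not given in the sources used here. The deposited lists hold the fold enrichment (a ratio of pileup to local background), −log10 p and −log10 q that MACS2 wrote, and a score that was not used. Depth enters through the pileup, whose whole number and background were recovered from fold enrichment and −log10 p. Reads were not used here, and 0 columns of other samples were met.

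CTCF peaks of the 8 lists that shared 1 bp or more were merged into sites. A site was lost when both libraries of the first group and neither of the second called it, gained in the reverse case, and kept when all 4 did. Log2 fold enrichment at sites called in all 4 libraries of a contrast was tested with limma 3.58.1 (R 4.3.3) without scaling, with Benjamini-Hochberg adjustment over all such sites and a threshold of 0.05. The contrasts share libraries. The limma test was checked on data simulated with independent noise of the spread between the WT replicates of day 4. That pair gave 0.595 of counting noise and the K20R pair of day 4 gave 1.51. The check may therefore understate the noise and does not vouch for the limma calls. The study describes 2 independent CTCF experiments per group but not whether cultures or clones differed, so p-values measure the spread between these libraries, which may be technical. The near-identical pairs were averaged in an alternative added after the data were seen. The limit on weak promoter peaks was also added then. Start sites and host genes came from GENCODE M21 (GRCm38). The CTCF matrix was learned from the top 1000 peaks of each WT list of day 0 only, and sites were scored with it within 100 bp of summits. Other steps used Python 3.11.15 (scipy 1.17.1, pandas 2.3.3, numpy 2.4.6, matplotlib 3.10.9).

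Named sites were those within 3 kb of a start, lost or gained, past the limma threshold, or the strongest distal site of a locus by mean WT fold enrichment. Named H3K27ac peaks were promoter peaks, the strongest distal peak per genotype and unshared peaks of at least 1 kb; the shorter T peaks within 60 kb were added after their values were seen. Members and lists were chosen with earlier results of these data known. Settings varied in turn were the distance (50 kb), the promoter distance (1 kb), the minimum −log10 q (5), the list length, summit windows in place of peaks, an overlap of 50%, centring, pileups in place of fold enrichment, 1 fit over all libraries, blocking on the replicate number, and each library left out.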

Additional observations from a re-analysis of the deposited data

How the results depend on the processing

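The direction of the CTCF peak number (fewer in K20R on both days) held under every alternative run, with leave-one-out ranges of -59.5 to -8.5 at day 0 and -33.5 to -20.5 at day 4, but lists of one length shrank the differences to -6.5 at day 4 and -3.5 at day 0, and 50 kb to -12 and -14.5. Lists of one length gave 5 sites lost at day 4, 4 at day 0, 2 lost and 1 gained in WT over time, and 3 lost in K20R over time. Within 50 kb these were 8 lost at day 4, 4 at day 0, 4 in WT and 3 in K20R over time. A −log10 q of at least 5 gave 6 lost and 1 gained at day 0 and 3 lost in WT over time, and summit windows gave 1 gained at day 0. Leaving out 1 library gave 20 to 28 lost and 1 to 5 gained at day 4, 14 to 53 lost and 0 to 2 gained at day 0, 7 to 40 lost and 4 to 14 gained in WT over time, and 6 to 11 lost and 3 to 6 gained in K20R over time. The highest day 0 and WT counts came without the second WT library of day 0.

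Calls of strength at kept sites rested on the setting. Leaving out 1 library gave 0 higher and 0 lower at day 4 in every case, 0 to 27 higher at day 0 (27 without the first WT library), 0 to 19 lower in K20R over time, and 0 to 2 lower for the genotype effect between days. Centring gave 14 of 62 higher at day 4 (12.7% of all sites), and 11 higher and 9 lower of 67 at day 0 (11.5% and 14%). Over time it gave 6 higher and 6 lower of 75 in WT (8.3% and 8.83%). In K20R over time 5 of 59 were higher (6.37%). Between days 5 were higher and 2 lower of 58 (4.85% and 3.95%). Recovered pileups gave 0 higher and 0 lower at day 4 (0.0653% and 1.22% of all sites) and 0 higher at day 0 (0%). In K20R over time they gave 1 lower of 59 (2.24%). With 1 fit over all 8 libraries 1 was lower at day 4. Counting the near-identical pairs once, chosen after seeing the data, also left 1 sample in a group, so its counts of calls are not read. Replicate numbers did not pair the samples (correlations of deviations 0.0345, -0.0246, 0.0132 and -0.0309), and a replicate block gave 7 higher and 3 lower at day 4, 6 higher at day 0 and 3 lower in K20R over time.

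A −log10 q of at least 5 left 19 WT and 16 K20R H3K27ac peaks, 5 and 2 without a partner at that limit, and 1 WT promoter peak. Against the full list of the other genotype 2 and 0 had no partner. Over the genome 10005 WT and 10014 K20R peaks were left, of which 191 and 298 had no partner in the full lists. Within 50 kb there were 31 WT and 26 K20R peaks, 20 and 13 without a partner. The causes of these changes were not tested. Weak sites near the callers' lowest pileups limit every count of lost sites, and 1 H3K27ac library per genotype leaves its differences without an error.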
